A study of Mus musculus with 9 samples.

Results

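The interleukins and interleukin receptors described here were 37 of the 785 probes of a mouse panel for T-cell exhaustion, chosen as all genes whose symbol begins with Il and a number. The genes Il10, Il12rb1, Il2ra and Il7r also match that pattern and were left out, while Il12rb2 was not among the matched symbols. RNA was counted in T-cells taken from bone marrow with a pan-T-cell isolation kit at day 7, from 9 mice in 3 groups of 3. All were female wild-type C57BL/6 recipients, 6 to 8 weeks old in the methods. One group carried no leukemia and got no treatment. The others received a single luciferase-expressing B-cell acute lymphoblastic leukemia (B-ALL) line, BCR-ABL1 positive and Arf-/-, without irradiation. The labels list one leukemia group as having no treatment, which the paper calls untreated in one place and vehicle treated in another, and the other as treated with recombinant IL-12 (rIL-12), for which the methods give 1 µg a dose from day 3. The comparisons ask how leukemia, and rIL-12 given to mice with leukemia, relate to the RNA of these T-cells.

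Interleukins are secreted proteins through which leukocytes instruct each other, and each acts on cells that carry its receptor chains. Several receptors share a chain, such as the common gamma chain for IL-2, IL-4, IL-7, IL-9, IL-15 and IL-21, or gp130 for IL-6, IL-11 and IL-27, and most of these chains signal through JAK kinases and STAT factors. Receptors of the IL-1 family instead work through MyD88 and IRAK kinases. T-cells carry many of these receptors without stimulation, whereas those interleukin genes that T-cells do transcribe are mostly transcribed after activation.

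Total counts ranged from 257613 to 711748 per mouse, lowest in mouse 3 of the vehicle group, and no probe had a count of 0. Replicate mice differed by more than counting noise (chi-square of 5.54 to 60 per degree of freedom). All 7 matched T-cell markers (Cd28, Cd3d, Cd3e, Cd3g, Cd5, Cd6 and Lck) had mean counts above the viral probe described next. Their summed normalized count fell from 4377 to 7336 in mice without leukemia to 1562 to 2889 in rIL-12 treated mice, and all 7 were called lower in that comparison, by a median of −1.47 on the log2 scale. Vehicle treated mice had 2896 to 4064, with a median log2 fold change of −0.74 and 0 of 7 called. In these bulk samples fewer T-cells and less of an RNA per T-cell cannot be told apart. The CD8 genes Cd8a and Cd8b1 summed to 1354 to 2629 without leukemia, 221 to 950 with vehicle and 198 to 320 with rIL-12, and Cd4 was at 107 to 208, 201 to 369 and 85 to 201. The summed markers of mast cells or basophils (Cpa3, Hdc, Ms4a2 and Tpsb2) were 1065 to 1169 without leukemia, 1889 to 2214 with vehicle and 1965 to 2198 with rIL-12, with Tpsb2 at or below the viral probe.

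**Figure D1:**
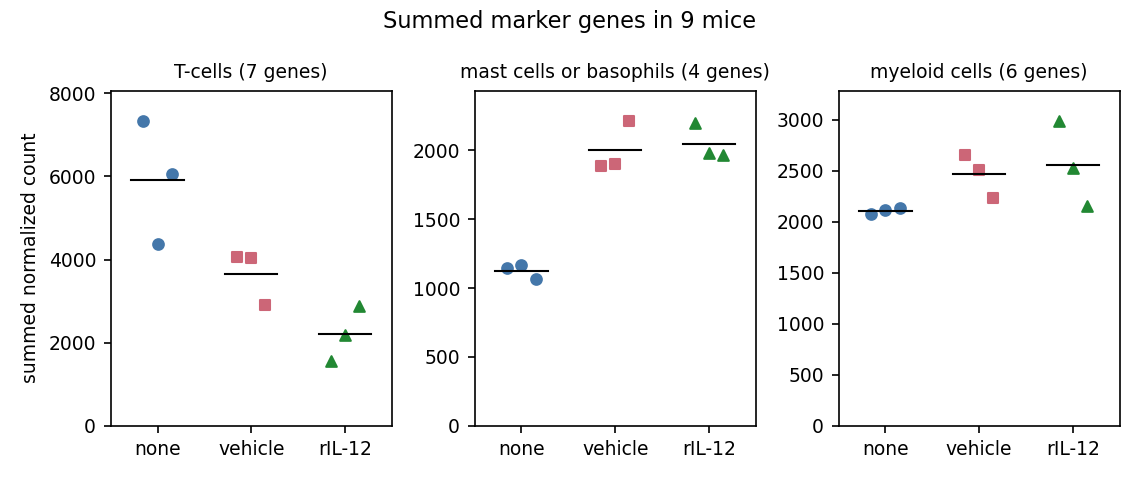
Summed normalized counts of marker genes (vertical axis, from 0) in each of 9 mice, for 7 T-cell, 4 mast cell or basophil and 6 myeloid genes. Points are mice and lines are means of 3 mice. The T-cell sums of the rIL-12 treated mice (1562 to 2889) lie below all 3 mice without leukemia (4377 to 7336), and the mast cell or basophil sums of both leukemia groups lie above them.

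The first question for any interleukin gene was whether its probe rose above background. A probe for a gene of the virus LCMV, which is not part of the mouse genome, had raw counts from 53 to 114, averaging 91 over the 9 mice. By their mean raw count, 16 of the 37 genes lay above that level and 21 (56.8%) lay at or below it, against 251 (32%) of the 784 probes other than the viral one. The split followed the role of the gene. Of 15 receptor genes 12 were above the viral probe, but of 22 genes for secreted proteins only 4 were, namely Il16, Il15, Il12a and Il5. Probes capture their targets with different efficiency, so counts of different genes were not ranked as levels of expression.

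The genes above the viral probe had mean raw counts from 92.2 (Il31ra, a receptor chain for IL-31) to 1518 (Il6ra, the IL-6 receptor). Between these lay Il10rb, Il16, Il1rl1, Il6st, Il21r, Il10ra, Il1r1, Il15, Il11ra1, Il27ra, Il12a, Il5, Il1rl2 and Il13ra1. In 12 of the 16 the count was above that of the viral probe in each of the 9 mice. The others were Il12a in 8 mice, Il1rl2 in 7, Il31ra in 5 and Il13ra1 in 3. Il5, although above in every mouse, was close to the viral probe, at 74 to 134 raw counts beside 53 to 114. The genes at or below the viral probe had means from 15 (Il9) to 65.8 (Il9r). They were Il9r, Il1rn, Il1r2, Il21, Il18, Il7, Il13, Il1rapl1, Il1f9, Il24, Il1b, Il17a, Il31, Il2, Il6, Il4, Il12b, Il3, Il11, Il1a and Il9. For 15 of these 21 the highest count in any mouse was under the lowest viral count of 53. Classic T-cell cytokines such as Il2, Il4, Il13 and Il17a thus did not exceed the viral probe in any group. Background rests here on that 1 probe, and other probes can have a lower floor. Only Il9r, in 2 mice, and Il21, in 1 mouse, exceeded the viral probe of the same mouse.

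**Figure D2:**
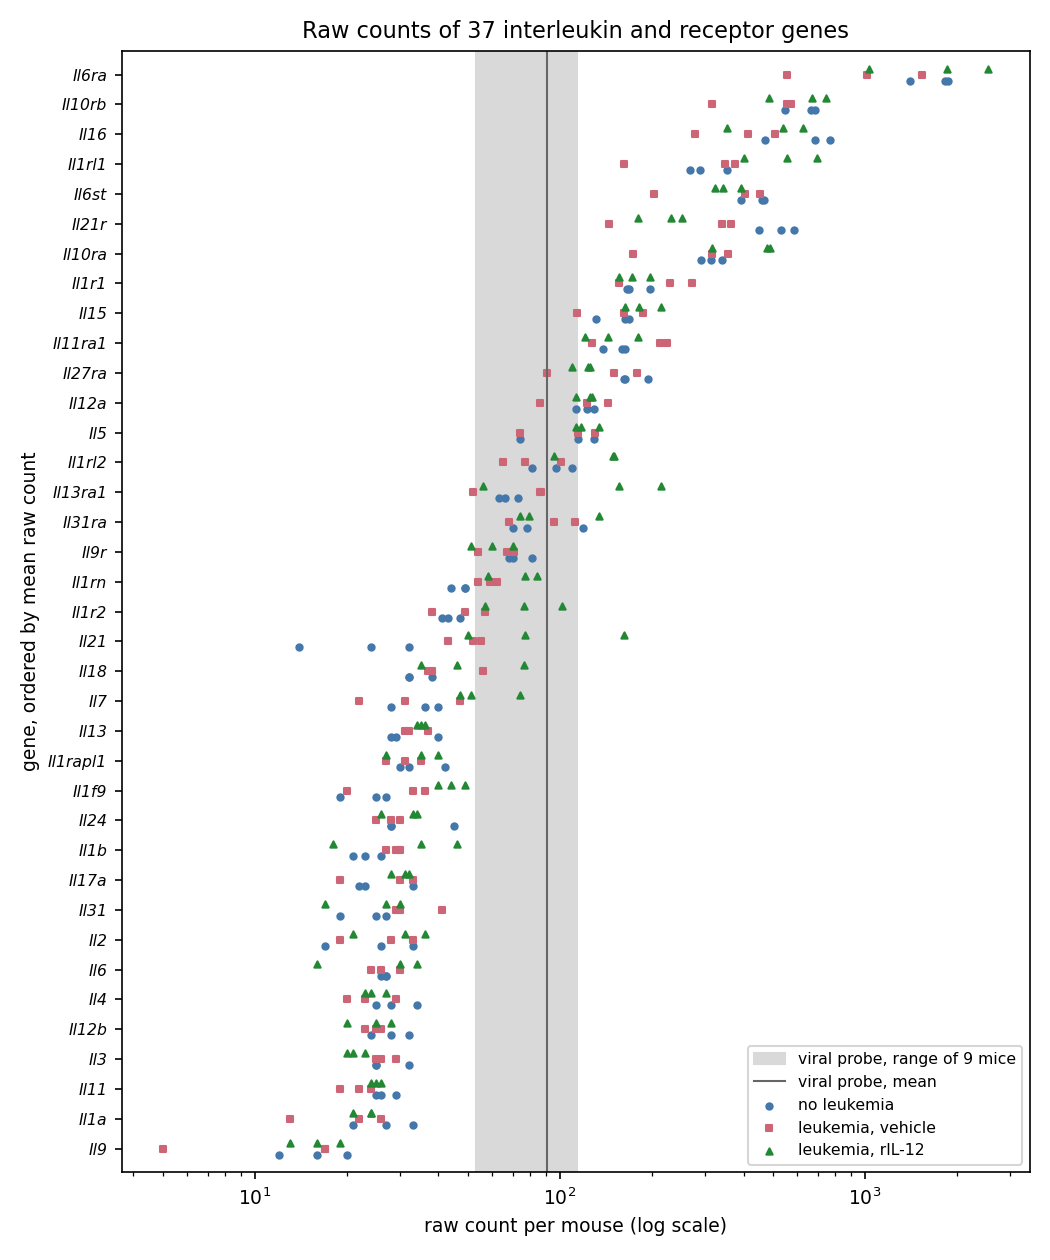
Raw counts (horizontal log axis) of the 37 genes in each of 9 mice, ordered by mean count, with the range of the viral probe (53 to 114) in gray and its mean (91) as a line. Symbols mark the 3 groups. Genes for receptors fill most of the upper part, and 15 genes have all 9 mice left of the gray band.

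A gene was called where edgeR's quasi-likelihood test gave p under 0.05, adjusted by Benjamini-Hochberg over the 785 probes, and the change was at least 1.5-fold. Values below named normalized counts are counts scaled to a common library size and are given in the order of mice 1, 2 and 3 of each group, with SD over n = 3 mice. Groups without overlap give p = 0.1 in an exact two-sided permutation test, the smallest that 3 mice against 3 allow.

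Between vehicle treated mice with leukemia and mice without leukemia, 0 of the 37 genes were called, where 2.68% of all probes were. At an unadjusted p under 0.05 from edgeR the count was 6 (Il16, Il1r1, Il21, Il21r, Il31 and Il6ra), or 16.2% against 15.2% of all probes. DESeq2 called 2 of the 37 (Il21 and Il21r), among 52 calls over all probes. In 8 genes the groups did not overlap, which is 21.6% against 22.5%. With rIL-12 against no leukemia, 4 genes (10.8%) were called against 17.6% of all probes. Il1rl1 and Il21 were higher (5.41% against 8.92%), and Il21r and Il27ra were lower (5.41% against 8.66%). In that comparison 10 genes (27%) had an unadjusted p under 0.05 against 32.5%, and 13 (35.1%) did not overlap against 35.5%. With rIL-12 against vehicle, 2 genes (5.41%) were called against 13.8% of all probes. Il1rl1 was higher (2.7% against 8.54%) and Il1r1 was lower (2.7% against 5.22%). There 7 genes (18.9%) had an unadjusted p under 0.05 against 33%, and 7 (18.9%) did not overlap against 30.7%. The shares of called genes were thus under those of the panel, and a share near or under that background says nothing particular about interleukins. The median log2 fold changes of the 37 genes in these comparisons, in the same order, were 0.12, −0.12 and −0.19, beside 0.05, 0.02 and −0.08 over all probes.

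Scaling to 11 housekeeping genes instead of TMM moved the median of all probes to 0.16, −0.27 and −0.49. Under TMM these 11 genes themselves differed between the groups. With rIL-12, 10 of 11 were higher in both comparisons, by a median of 0.34 against no leukemia and 0.40 against vehicle. Abcf1, Sdha, Tbp and Ubb were called higher against vehicle, and Sdha and Ubb against no leukemia. With vehicle against no leukemia their median was −0.14. Housekeeping scaling changed the split of all called probes from 70 higher and 68 lower to 22 higher and 96 lower with rIL-12 against no leukemia, from 67 and 41 to 23 and 206 against vehicle, and from 10 and 11 to 2 and 1 with vehicle against no leukemia. Relative to the median of all probes, the log2 fold changes with rIL-12 against no leukemia under TMM and housekeeping scaling were 1.79 and 1.77 for Il21, −1.42 and −1.39 for Il21r, −0.73 and −0.72 for Il27ra, and 0.64 and 0.62 for Il1rl1. A change of scaling shifts all probes by nearly the same amount, and subtracting the median removes that shift. These pairs were thus bound to be close and do not test the choice of scaling. Without the subtraction, housekeeping scaling gave 1.5 for Il21, −1.66 for Il21r, −0.99 for Il27ra and 0.36 for Il1rl1. Il1rl1 was then no longer called (adjusted p = 0.168 from edgeR), while the others were.

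**Figure D3:**
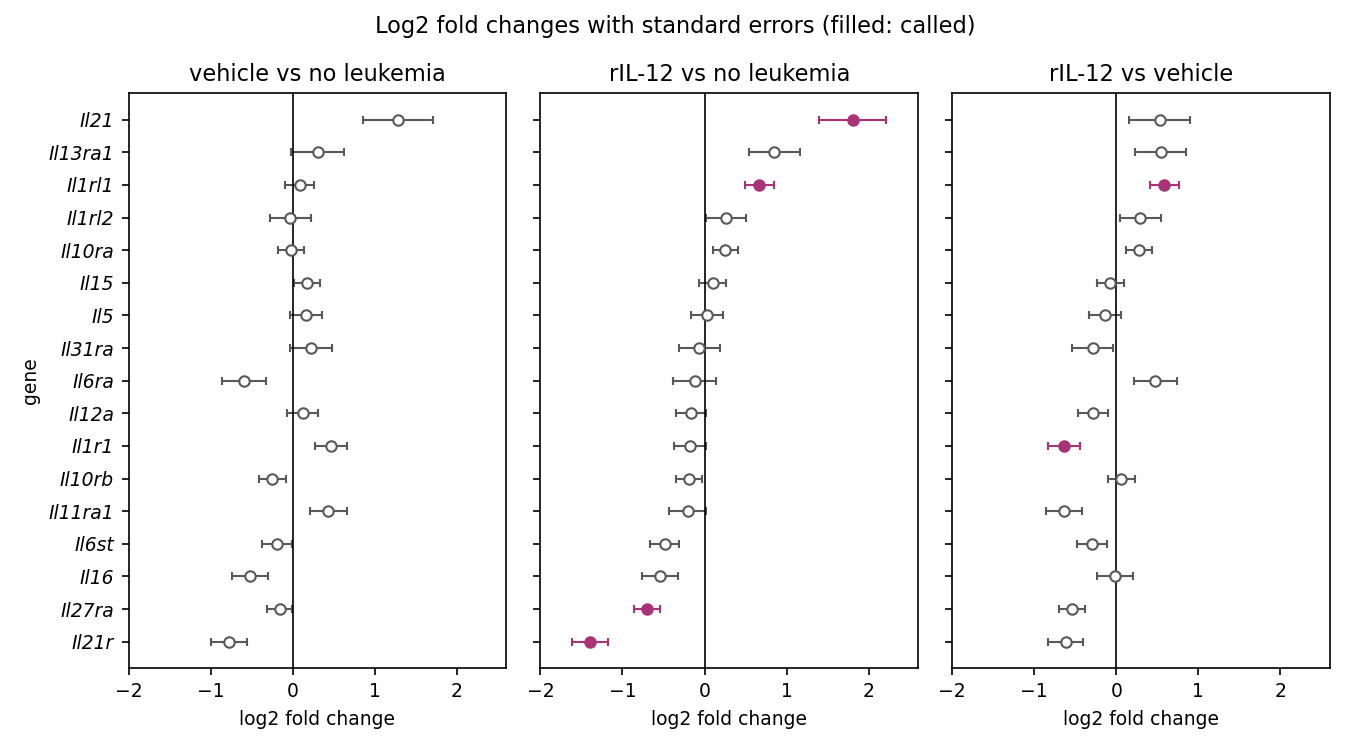
Log2 fold changes (horizontal axis, shared by the 3 panels) with standard errors from edgeR for the 16 genes above the viral probe and Il21, in the 3 comparisons. Filled points were called. Il21r is lowest with rIL-12 against no leukemia, at −1.40. Il21, at 1.81, was at or below the viral probe in 8 of 9 mice and its value is not comparable in size with the others.

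Within the common gamma chain family (7 genes, of which Il21r and Il15 lay above the viral probe), the gene for the cytokine IL-21, near background, and the gene for its receptor were both called with rIL-12 against no leukemia. IL-21 is a product mainly of activated CD4 T-cells that acts on T-cells, B-cells and NK cells, and Il21r encodes the chain that binds it. Il21 (NM_021782.2) had raw counts of 14, 32 and 24 without leukemia, 43, 55 and 52 with vehicle and 50, 162 and 77 with rIL-12. Every mouse with leukemia lay above every mouse without, but only mouse 2 of the rIL-12 treated group exceeded the viral probe of the same mouse. Normalized counts were 23.5 ± 8.76, 60.4 ± 23.3 and 84.5 ± 43.8. Relative to no leukemia, Il21 rose with rIL-12 by 1.81 on the log2 scale (standard error 0.41, adjusted p = 0.00782 from edgeR), and the difference with vehicle was 1.28 (0.42, adjusted p = 0.134). Between rIL-12 and vehicle it was 0.53 (0.38, adjusted p = 0.36), with overlap. All 3 counts without leukemia were under the lowest viral count of 53, so these log2 values describe probe counts near background and give no size for a change in Il21 RNA. Without mouse 1 of the group with no leukemia the call with rIL-12 was lost, at 1.61 and an adjusted p of 0.0609, within a range of 7.8e-05 to 0.176 over its alternatives.

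Il21r (NM_021887.1) had normalized counts of 621, 456 and 511 without leukemia, 344, 335 and 242 with vehicle and 156, 187 and 260 with rIL-12. Its means were 530 ± 83.8, 307 ± 56.4 and 201 ± 53.3. Both leukemia groups lay entirely below the mice without leukemia, while the rIL-12 and vehicle groups overlapped. The log2 fold change was −1.40 with rIL-12 against no leukemia (standard error 0.22, adjusted p = 0.000846 from edgeR), −0.78 with vehicle (0.22, adjusted p = 0.0913) and −0.62 between rIL-12 and vehicle (0.22, adjusted p = 0.0678). The first of these was called in all 9 fits that leave out 1 mouse, between −1.62 and −1.24. Over its alternatives the adjusted p ran from 1.21e-07 with DESeq2 to 0.11 with the methods' t-test, where the call was lost (−1.41). Summed T-cell markers moved with Il21r across the 3 groups. As a share of their sum, Il21r was 8.46%, 10.4% and 8.43% without leukemia, 8.47%, 8.32% and 8.37% with vehicle and 9.98%, 8.55% and 8.99% with rIL-12. That share thus averaged 9.11% ± 1.14, 8.39% ± 0.0757 and 9.17% ± 0.735. The part of the markers in the result was not tested.

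Il15, a cytokine that sustains memory T-cells and NK cells, had means of 156 ± 16, 176 ± 13.6 and 167 ± 8.15 normalized counts, and its groups overlapped in all comparisons. Il2, Il7, Il9 and Il9r were at or below the viral probe, and none was called.

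The 250 bases before the annotated starts of the called genes are shown because they hold, or lack, letters bound by factors of cytokine signaling and of blood cells. Windows come from RefSeq on build GRCm38.p6, where 31 of the 37 genes had at least 1 and Il27ra had none. Both strands were searched for 4 motifs spelled out beside their shares, and matches are in capitals.

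Il21 (chr3:37232637-37232886, minus strand): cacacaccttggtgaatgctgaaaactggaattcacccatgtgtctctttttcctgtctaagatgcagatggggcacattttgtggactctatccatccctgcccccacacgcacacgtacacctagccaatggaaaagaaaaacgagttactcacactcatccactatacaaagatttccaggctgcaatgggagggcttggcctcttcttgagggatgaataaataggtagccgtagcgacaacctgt
Il21r (chr7:125603179-125603428, plus strand): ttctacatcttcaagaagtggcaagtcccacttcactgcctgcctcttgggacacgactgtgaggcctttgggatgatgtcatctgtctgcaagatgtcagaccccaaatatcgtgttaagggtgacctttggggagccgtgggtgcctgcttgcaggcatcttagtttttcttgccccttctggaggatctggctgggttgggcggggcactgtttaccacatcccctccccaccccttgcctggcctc

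Neither window held any of the 4 motifs. The GAS motif of STAT dimers, searched as TTCNNNGAA, was in 7.02% of all 32851 windows of this length, and among the 31 genes in those of Il1f9, Il1r2 and Il31ra. The AP-1 motif of FOS and JUN proteins, searched as TGANTCA, was in 6.75% of all windows and in those of 7 genes (Il11, Il16, Il17a, Il1a, Il1rn, Il6 and Il9), and the T-box motif of factors such as T-bet, searched as GGTGTGA, was in 3.33% and in that of Il11. A match is a description of letters only.

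In the gp130 family, where Il31 and Il31ra were also placed (8 genes, 5 above the viral probe), Il27ra was the gene that was called. It encodes the receptor chain for IL-27, a cytokine that restrains effector T-cells and supports some regulatory ones. Il27ra (NM_016671.3) had normalized counts of 174, 164 and 188 without leukemia, 152, 165 and 152 with vehicle and 109, 99.9 and 114 with rIL-12. Every rIL-12 treated mouse lay below the other 6 mice, and the other groups overlapped. The means were 176 ± 12.4, 157 ± 7.53 and 108 ± 7.08, and the log2 fold change with rIL-12 against no leukemia was −0.70 (standard error 0.16, adjusted p = 0.00768 from edgeR). Against vehicle it was −0.54 (0.16, adjusted p = 0.0412), past the p threshold but under 1.5-fold, and vehicle against no leukemia was −0.16 (0.16, adjusted p = 0.707). Without mouse 3 of the group with no leukemia the call was lost, at −0.60 and an adjusted p of 0.0574, within 0.00125 to 0.0981 over its alternatives. As a share of the summed T-cell markers, Il27ra was 3.08% ± 0.686, 4.37% ± 0.785 and 5.16% ± 1.61. The part of the markers in the result was not tested.

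The signal chain gp130 itself, encoded by Il6st, had normalized counts of 489, 398 and 452 without leukemia, 456, 374 and 339 with vehicle and 341, 260 and 354 with rIL-12. The rIL-12 treated mice lay below those without leukemia, at −0.49 (standard error 0.18, adjusted p = 0.074 from edgeR), which did not pass. Il6ra, which binds IL-6 and hands it to gp130, had 1944, 1426 and 1813, then 1551, 940 and 931, then 2202, 1495 and 1066. Its groups overlapped throughout, and the largest difference was −0.60 with vehicle against no leukemia (0.26, adjusted p = 0.303).

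Il11ra1, the IL-11 receptor chain, had 174, 162 and 133 normalized counts without leukemia, 226, 197 and 212 with vehicle and 125, 97.5 and 186 with rIL-12. The vehicle treated mice were above all 6 others, yet the differences of 0.43 against no leukemia (standard error 0.22, adjusted p = 0.397 from edgeR) and −0.64 between rIL-12 and vehicle (0.22, adjusted p = 0.0668) did not pass. DESeq2 called the latter, at −0.62 and an adjusted p of 0.0449. Il31ra had 74.3, 78.9 and 115, then 113, 88.6 and 114, then 116, 63.6 and 76.6, across the level of the viral probe and with overlap between all groups. Il6, Il11 and Il31 were at or below the viral probe, with highest counts of 34, 29 and 41.

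In the IL-1 family (10 genes, 3 above the viral probe), 2 receptor genes were called in opposite directions with rIL-12 against vehicle. Il1rl1 encodes ST2, the receptor for the alarmin IL-33, carried by mast cells, group 2 innate lymphoid cells and some regulatory T-cells. Il1rl1 (NM_001025602.2) had normalized counts of 284, 356 and 277 without leukemia, 351, 347 and 271 with vehicle and 481, 562 and 417 with rIL-12. Every rIL-12 treated mouse lay above the other 6, and the other groups overlapped. The means were 306 ± 43.5, 323 ± 45.4 and 486 ± 72.4. Il1rl1 rose with rIL-12 by 0.67 on the log2 scale against no leukemia (standard error 0.18, adjusted p = 0.0207 from edgeR) and by 0.59 against vehicle (0.18, adjusted p = 0.0459), while vehicle against no leukemia was 0.08 (0.18, adjusted p = 0.904). The rise against vehicle was 1.501-fold, at the edge of the fold threshold. It was called in 1 of the 9 fits that leave out 1 mouse (without rIL-12 mouse 3), with adjusted p between 0.00999 and 0.198. The rise against no leukemia was called in 6 of 9 and was lost without mouse 1 (0.65, adjusted p = 0.0919) or mouse 3 (0.65, adjusted p = 0.0805) of the group with no leukemia or rIL-12 mouse 2 (0.55, adjusted p = 0.105). Under housekeeping scaling neither passed, at 0.36 (adjusted p = 0.168) and 0.17 (adjusted p = 0.387). Over all alternatives the adjusted p ran from 0.00492 to 0.168 against no leukemia and from 0.00999 to 0.387 against vehicle.

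Markers of other cell types moved between the groups beside Il1rl1. Those of mast cells or basophils summed to 1065 to 1169 without leukemia, 1889 to 2214 with vehicle and 1965 to 2198 with rIL-12, and Cpa3 and Ms4a2 were called higher in both leukemia groups against no leukemia. Hdc (0.44 with vehicle and 0.17 with rIL-12) and Tpsb2 (0.13 and 0.07) were not called. Relative to the summed mast cell or basophil markers Il1rl1 was 27.1% ± 2.94, 16.4% ± 3.58 and 23.8% ± 3.92. The matched genes of plasmacytoid and other dendritic cells, Bst2 and Siglech, summed to 719 to 836, 558 to 716 and 887 to 1488, so that the rIL-12 treated mice lay above the other 6. Of these Bst2, which interferon also induces, was called higher with rIL-12 in both comparisons (1.13 and 1.28 on the log2 scale), whereas Siglech was called lower against no leukemia (−0.96). The 6 myeloid markers summed to 2076 to 2139, 2236 to 2653 and 2154 to 2989. Of these Cd68 (0.75) and Fcgr1 (1.11) were called higher with rIL-12 against no leukemia. Itgax, at or below the viral probe, was called lower with rIL-12 against vehicle (−0.65). The median of the 6 with rIL-12 was 0.13 against no leukemia and −0.06 against vehicle. The 4 NK cell markers summed to 969 to 1222, 665 to 925 and 852 to 1436, with Klrk1 called higher in both comparisons (1.43 and 1.37) and Klrd1 lower against no leukemia (−1.83). The part of these cell types in the result was not tested.

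Il1r1 encodes the signaling receptor for IL-1. Il1r1 (NM_001123382.1) had normalized counts of 178, 199 and 160 without leukemia, 231, 251 and 261 with vehicle and 149, 126 and 204 with rIL-12. The vehicle treated mice lay above the other 6, and the rIL-12 treated mice overlapped those without leukemia. With means of 179 ± 19.4, 248 ± 15.1 and 160 ± 40.1, Il1r1 fell by 0.63 on the log2 scale with rIL-12 against vehicle (standard error 0.19, adjusted p = 0.0459 from edgeR). The difference of vehicle from no leukemia was 0.46 (0.19, adjusted p = 0.276) and that of rIL-12 from no leukemia −0.17 (0.19, adjusted p = 0.611). The call was made in 1 of the 9 fits that leave out 1 mouse (without rIL-12 mouse 3), with adjusted p between 0.00347 and 0.198, and not with the replicate number as a block (−0.65, adjusted p = 0.0547). Over all alternatives the adjusted p ran from 0.00347 to 0.272.

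**Figure D4:**
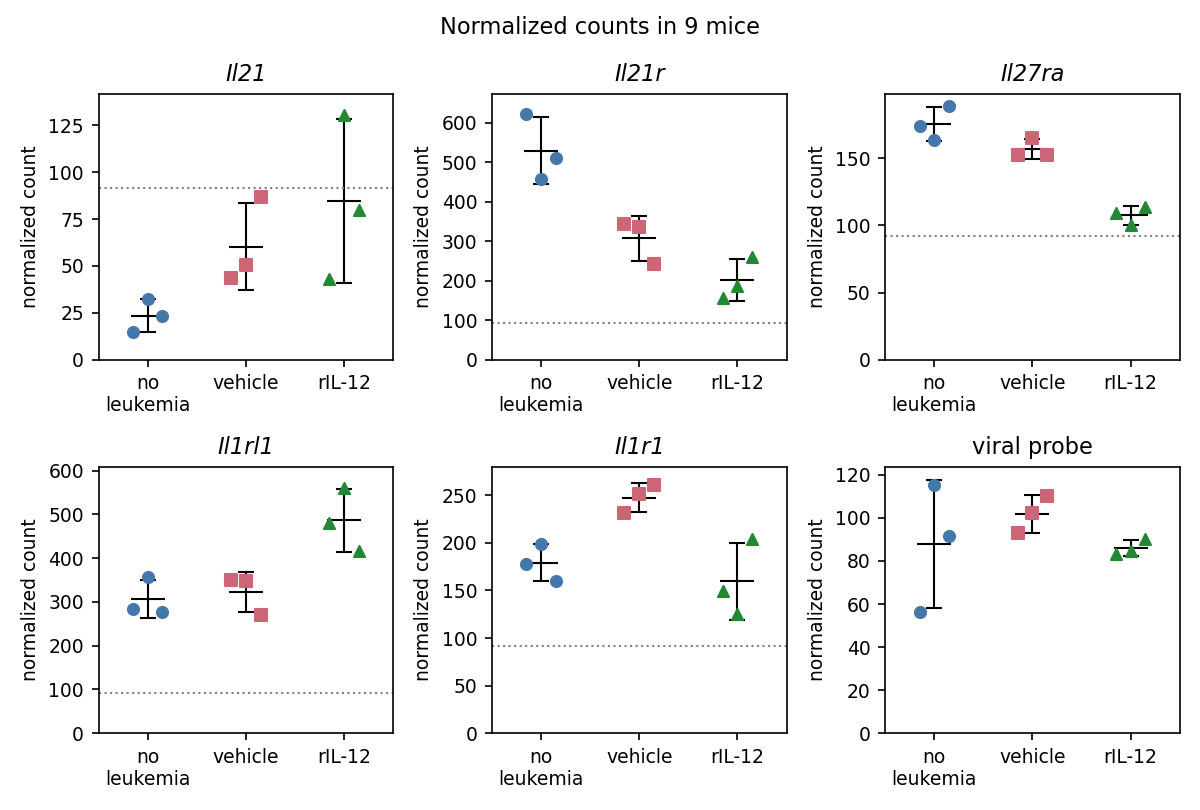
Normalized counts (vertical axes, each from 0) of the 5 called genes and the viral probe in each of 9 mice, with the mean and SD of 3 mice in black and the mean of the viral probe as a dotted line. Il21r and Il27ra are lowest and Il1rl1 highest with rIL-12, Il1r1 is highest with vehicle, and Il21 crosses the viral level.

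On chromosome 1 the genes Il1r2, Il1r1, Il1rl2 and Il1rl1 follow each other with no other protein-coding gene between them. The 250 bases before the annotated starts of the called pair are shown because these neighbors were called in opposite directions.

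Il1rl1, start 1 (chr1:40429320-40429569, plus strand): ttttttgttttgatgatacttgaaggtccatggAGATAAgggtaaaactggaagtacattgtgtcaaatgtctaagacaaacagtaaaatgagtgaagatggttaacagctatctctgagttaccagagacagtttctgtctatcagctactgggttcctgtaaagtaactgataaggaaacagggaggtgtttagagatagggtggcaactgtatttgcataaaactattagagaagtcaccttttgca
Il1rl1, start 2 (chr1:40439379-40439628, plus strand): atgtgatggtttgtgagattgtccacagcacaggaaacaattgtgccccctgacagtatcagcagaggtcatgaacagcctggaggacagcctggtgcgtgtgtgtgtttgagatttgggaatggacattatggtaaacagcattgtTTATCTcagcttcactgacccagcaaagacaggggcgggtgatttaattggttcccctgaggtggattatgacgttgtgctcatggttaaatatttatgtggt
Il1r1, start 1 (chr1:40224830-40225079, plus strand): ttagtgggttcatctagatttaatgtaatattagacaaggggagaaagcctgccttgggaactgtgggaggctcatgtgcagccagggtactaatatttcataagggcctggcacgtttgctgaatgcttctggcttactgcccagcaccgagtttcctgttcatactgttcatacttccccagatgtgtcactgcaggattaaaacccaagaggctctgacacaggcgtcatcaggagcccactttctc
Il1r1, start 2 (chr1:40266336-40266585, plus strand): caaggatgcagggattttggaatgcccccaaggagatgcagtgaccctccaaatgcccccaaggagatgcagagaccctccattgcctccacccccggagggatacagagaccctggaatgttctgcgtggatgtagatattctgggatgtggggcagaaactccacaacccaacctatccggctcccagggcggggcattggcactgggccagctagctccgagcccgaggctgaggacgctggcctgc

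Each Il1rl1 window held AGATAA, the searched form of the GATA motif, once, shown in capitals, on the reverse strand in the window of the later start. Other spellings of the GATA motif were not searched. AGATAA was in 9.99% of all windows and in those of 6 of the 31 genes (Il13, Il1f9, Il1rl1, Il3, Il6ra and Il9r). Neither Il1r1 window held any of the 4 motifs. Between Il1r1 and Il1rl1 lies Il1rl2, the receptor for the IL-36 cytokines, with 103, 81.9 and 106 normalized counts without leukemia, 102, 60 and 129 with vehicle and 129, 121 and 99.3 with rIL-12. These groups overlapped and straddled the viral probe, and the differences of −0.03, 0.26 and 0.29 did not pass (adjusted p = 0.979, 0.526 and 0.446 from edgeR). Il1r2, a decoy receptor without a signaling domain, had 43, 41 and 47 raw counts, then 38, 57 and 49, then 57, 102 and 76. It was at or below the viral probe of the same mouse in all 9, at 0.65 with rIL-12 against no leukemia (standard error 0.28, adjusted p = 0.119 from edgeR). The other genes at or below the viral probe were the ligands Il1a, Il1b, Il18 and Il1f9, the antagonist Il1rn and the brain receptor Il1rapl1. None was called, and Il1f9, which encodes an IL-36 cytokine, came nearest at 0.71 with rIL-12 against no leukemia (0.25, adjusted p = 0.0599).

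Of the genes of IL-4, IL-13, IL-3 and IL-5 and their receptors (5 genes, 2 above the viral probe), none was called. Il13ra1, a receptor chain for IL-13 that also pairs with the IL-4 receptor, had 70, 73.8 and 60.9 normalized counts without leukemia and 86.8, 80.3 and 86.9 with vehicle. With rIL-12 it had 185 and 126 in mice 1 and 2 but 57.9 in mouse 3, so that this group spanned both others. Its mean raw count of 94.8 was just above the 91 of the viral probe, but its median of 73 was under the viral median of 95. It exceeded the viral probe of the same mouse in only 3 of 9 mice, so its log2 values rest largely on counts near background. The log2 fold change with rIL-12 against no leukemia was 0.85 (standard error 0.31, adjusted p = 0.074 from edgeR), DESeq2 called it (adjusted p = 0.0465), and leaving out 1 mouse moved it between 0.44 (adjusted p = 0.371, without rIL-12 mouse 1) and 1.18 (adjusted p = 0.00114, without rIL-12 mouse 3). Under housekeeping scaling it was 0.50 (adjusted p = 0.263). Vehicle did not overlap no leukemia, at 0.31 (0.32, adjusted p = 0.73). Il5, the eosinophil cytokine, was close to the viral probe and had means of 107 ± 26.2, 120 ± 3.79 and 109 ± 7.81 with overlap in all comparisons. Its neighbors on chromosome 11, Il4 and Il13, had highest raw counts of 34 and 40, below the lowest viral count, as did Il3, with 32.

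In the IL-10 family (3 genes) both receptor chains were above the viral probe. Il10ra, which binds IL-10, had 309, 317 and 328 normalized counts without leukemia, 318, 330 and 291 with vehicle and 415, 395 and 327 with rIL-12. The differences with rIL-12 of 0.25 against no leukemia and 0.27 against vehicle (standard error 0.15 in each, adjusted p = 0.295 and 0.238 from edgeR) did not pass, and both turned negative under housekeeping scaling, to −0.05 and −0.14. Il10rb, a chain that the receptors for IL-10, IL-22 and type III interferon share, had 727, 553 and 644, then 578, 512 and 526, then 644, 540 and 501, with overlap in all comparisons. Its differences were −0.25, −0.19 and 0.06 (adjusted p = 0.568, 0.487 and 0.833), the last negative under housekeeping scaling (−0.35). Il24 was below the viral probe.

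Of the subunits of IL-12 itself, Il12a (p35) had 130, 114 and 125 normalized counts without leukemia, 145, 114 and 144 with vehicle and 97.9, 101 and 131 with rIL-12, with overlap in all comparisons. Its differences were 0.12, −0.16 and −0.28 (adjusted p = 0.835, 0.611 and 0.316 from edgeR). Il12b (p40, shared with IL-23) had 20 to 32 raw counts in all 9 mice, below the viral probe. The mice received IL-12 as protein, which these probes do not count. Il17a, the sole member of its family here, had 19 to 33 raw counts.

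Il16, a chemoattractant for CD4 cells that T-cells store as a precursor, had 817, 474 and 664 normalized counts without leukemia, 514, 383 and 463 with vehicle and 542, 433 and 364 with rIL-12. Its means were 652 ± 172, 453 ± 65.8 and 447 ± 89.8, and the groups overlapped in all comparisons. The differences from no leukemia of −0.52 with vehicle and −0.54 with rIL-12 (standard error 0.22 in each, adjusted p = 0.267 and 0.0991 from edgeR) did not pass. Leaving out 1 mouse moved the second of these between −0.33 (adjusted p = 0.425, without mouse 1 of the group with no leukemia) and −0.73 (adjusted p = 0.047, without mouse 2 of that group).

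Of the genes that act next to or downstream of these receptors, 23 of a list of 34 were on the panel (ligands and receptors such as Lif, Lifr, Osm and Tslp, kinases of the JAK and IRAK families, STAT factors and the SOCS inhibitors). With vehicle against no leukemia 0 of 23 were called, where 2.68% of all probes were. With rIL-12 against no leukemia 2 were higher (8.7% against 8.92% of all probes) and 0 lower (against 8.66%). With rIL-12 against vehicle 2 were higher (8.7% against 8.54%) and 2 lower (8.7% against 5.22%). The 2 that were higher were the same genes in both comparisons. Stat3, which acts below gp130 and the IL-21 receptor, was higher by 0.89 and 0.89 on the log2 scale (standard error 0.19 in each, adjusted p = 0.00629 and 0.0151 from edgeR), and the kinase Jak2 by 0.73 and 0.97 (0.20 in each, adjusted p = 0.0213 and 0.0137). The 2 that were lower against vehicle were the inhibitor Socs2 (−1.33, 0.32, adjusted p = 0.0194 from edgeR) and the kinase Tyk2, which serves the IL-12 receptor (−0.75, 0.22, adjusted p = 0.0411). Against vehicle, 0 of all probes were called without mouse 2 of the vehicle group or without rIL-12 mouse 2. By the methods' t-test 0 were called in either rIL-12 comparison. None of the signaling calls held in those fits. The median over the 23 was 0.06, 0.06 and 0.04 in the 3 comparisons.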

How the data were processed

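RNA of bone marrow T-cells from 9 mice was hybridized to the nCounter Immune Exhaustion panel for mouse. As deposited by the authors, the values are raw barcode counts of 785 probes. The methods describe normalization with nSolver, which is not in these values, and its settings are not given in the sources used here. Transcript names were matched to symbols for 751 probes through RefSeq (GRCm38.p6), and the other 34 were tested unnamed. The panel's spike-in controls were not used here.

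Counts were scaled with TMM and fitted in edgeR 4.0.16 (R 4.3.3) by quasi-likelihood, with 3 groups, no block and a prior count of 1. Alternatives were DESeq2 1.42.0, other scalings, filters and thresholds, the methods' t-test, 2 groups at a time and each mouse left out. The procedure was tested on simulated data. Replicates were taken as separate mice, since the titles number the samples within each group and the methods give 3 mice in each. Same-numbered mice without leukemia and with vehicle deviated together (correlations 0.26, 0.113 and 0.125), and the replicate number as a block left 0 of the 37 genes called in that comparison, with 20 instead of 21 calls over all probes. Values in each mouse are given for called genes and, by smallest p, for others above the viral probe up to 15 in all. The genes and lists were chosen with earlier results of these data known. The total count per mouse limits precision for low genes, and intervals for single counts were not computed. Some genes of the marker and signaling lists are not reported here.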

Additional observations from a re-analysis of the deposited data

How the results depend on the processing

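With vehicle against no leukemia 0 of the 37 genes were called, 2 by DESeq2 and with 2 groups in the model (Il21 and Il21r), and 0 to 1 with each mouse left out (1, Il21r, without rIL-12 mouse 3). With rIL-12 against no leukemia 4 were called, 0 by the methods' t-test after adjustment, 2 at a 2-fold threshold and 2 to 5 with each mouse left out (2 without mouse 1 or mouse 3 of the group with no leukemia). With rIL-12 against vehicle 2 were called, 9 (all lower) under housekeeping scaling, 1 with a mean count of at least 20 (Il1r1), 4 with only probes above the viral probe, and 0 with the t-test, with 2 groups in the model or at a 2-fold threshold. With each mouse left out that count ran from 0 to 6, at 1 without mouse 1 of the vehicle group (Il31), 6 without rIL-12 mouse 3 and 0 in the others. Calls over all probes moved as well. With vehicle against no leukemia they were 21, 52 by DESeq2, 63 with 2 groups and 0 to 42 with each mouse left out. With rIL-12 against no leukemia they were 138, 0 by the t-test and 66 to 194 with each mouse left out. With rIL-12 against vehicle they were 108, 229 under housekeeping scaling and 27 with 2 groups. With each mouse left out they ran from 0 to 199, the most without rIL-12 mouse 3. By the t-test 5, 8 and 5 genes had an unadjusted p under 0.05, of 102, 190 and 139 probes. Fewer samples or probes entered several of these fits, and otherwise the cause was not tested. The count of genes above the viral probe was 16 and ran from 14 to 16 with each mouse left out, and from 12 to 17 by other definitions of background.

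With the replicate number as a block the counts were 0, 4 and 1 (Il1rl1), of 20, 125 and 98 calls over all probes. Over all groups 5 of 9 same-numbered pairs had correlated deviations over 0.1 (from −0.187 to 0.335), and not every mouse correlated best with its own number.

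Differences that changed sign all missed the threshold. Under housekeeping scaling these were Il10ra (0.0853, −0.0544 and −0.14 in the 3 comparisons), Il1rl2 (0.0875, −0.0426 and −0.13) and Il10rb with rIL-12 against vehicle (−0.351). With only probes above the viral probe they were Il10ra (0.0103) and Il1rl2 (0.0161) with vehicle, and Il10rb with rIL-12 against vehicle (−0.0325). Il16 with rIL-12 against vehicle was 0.0122 with DESeq2, 0.0123 with its size factors and 0.0579 with 2 groups. With each mouse left out, ranges that crossed 0 were, for vehicle against no leukemia, −0.0178 to 0.205 for Il1rl1, −0.0926 to 0.0272 for Il10ra and −0.263 to 0.255 for Il1rl2. For rIL-12 against vehicle they were −0.183 to 0.106 for Il16, −0.0502 to 0.136 for Il10rb and −0.011 to 0.526 for Il1rl2. For rIL-12 against no leukemia they were −0.431 to 0.0972 for Il6ra and −0.354 to 0.199 for Il31ra.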

Other observations

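Of the 21 genes at or below the viral probe, 16 had their highest normalized count of all 9 mice in mouse 3 of the vehicle group, and 0 had their highest raw count there. That mouse had the lowest total count, at 257613. Of the 16 genes above the viral probe, 2 had their highest normalized count in that mouse and 0 their highest raw count. Over the genes at or below the viral probe, the median log2 fold change with vehicle against no leukemia was 0.17 (15 of 21 positive), beside 0.03 (8 of 16 positive) over the genes above it.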
